A study of Homo sapiens with 4 samples.

Results

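The 6 genes described here encode the human VPS13 proteins (VPS13A, VPS13B, VPS13C and VPS13D) and the related ATG2 proteins (ATG2A and ATG2B). They were chosen by name, as the paralogs and structural relatives of VPS13A, a transcript that the study had also followed by RT-qPCR. Each was matched by its Ensembl identifier to a table of 63677 counted genes, of which 15116 passed the filter on low counts and were tested, all 6 members among them. The table holds RNA-seq of HCT116 cells, a human colorectal cancer line, in 4 libraries. Cells of 2 libraries were transfected with an anti-GAA ASO, an antisense oligonucleotide complementary to tandem GAA repeats that directs RNase H to RNAs carrying them, and cells of the other 2 with a control ASO. All 4 libraries therefore come from transfected cells, and no untreated library was analysed here. The sample labels give a transfection of 48 h and a total RNA library kit, whereas the study's methods give a shorter transfection and a stranded mRNA kit. Replicates 1 and 2 of each ASO are labelled as separate samples, but nothing in the labels says that they came from separate cultures. The study's methods call them duplicate experiments, without stating that the cultures were separate. The p-values therefore measure only the spread between these libraries.

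VPS13 and ATG2 proteins are bridge-like lipid transfer proteins, long rods with a hydrophobic groove along which phospholipids are thought to pass between a pair of membranes held close together. The VPS13 proteins differ in where they sit. VPS13A, or chorein, acts at contacts of the endoplasmic reticulum with mitochondria, lipid droplets and the plasma membrane and is lost in VPS13A disease (chorea-acanthocytosis), VPS13B acts at the Golgi complex and is mutated in Cohen syndrome, VPS13C acts at contacts with late endosomes and lysosomes, and VPS13D supports mitochondria and peroxisomes. ATG2A and ATG2B feed lipids into the growing autophagosome. Their mRNAs are long.

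The sequences that an anti-GAA ASO could meet in these mRNAs are shown first. A GAA run is here an uninterrupted stretch of tandem GAA read in any of its registers (GAA, AAG or AGA) on the RNA strand, and it was searched in the longest protein-coding transcript of each gene in GENCODE 44, on GRCh38. In VPS13A the longest run was 9 nt and occurred at 2 places, both in the coding sequence, in exon 43 (chr9:77321211-77321219, plus strand) and in exon 55 (chr9:77356742-77356750, plus strand). VPS13C held a run of 11 nt in coding exon 61 (chr15:61915652-61915662, minus strand), and ATG2B a run of 11 nt in coding exon 17 (chr14:96322667-96322677, minus strand). They are printed 5′ to 3′ with the run in capitals and 8 nt of the transcript on either side.
VPS13A exon 43: cagatcctGAAGAAGAAaactacaa
VPS13A exon 55: caaagcccAAGAAGAAGgcaagatg
VPS13C exon 61: tttctttcAAGAAGAAGAAcattttta
ATG2B exon 17: ttgcagctGAAGAAGAAGAggagaatg
VPS13D and ATG2A held no run of 9 nt or more, and their best ungapped match to 21 nt of tandem GAA had 15 matching bases, in capitals here, in coding exon 17 of VPS13D (chr1:12271051-12271071, plus strand) and in coding exon 29 of ATG2A (chr11:64902030-64902050, minus strand).
VPS13D exon 17: AtAAcAAGctGAAGAtGcAGA
ATG2A exon 29: AgGAAGAtGAAaggGAAGAgG
The RT-qPCR primers listed by the study for VPS13A are shown to place that assay on the same transcript. They matched exons 48 (chr9:77339842-77339867) and 49 (chr9:77340228-77340250), gave an amplicon of 143 nt, and were both found in 4 of 13 annotated VPS13A transcripts. The amplicon began 1238 nt downstream of the run in exon 43 and lay upstream of the run in exon 55.
VPS13A forward primer: gcatccacctaattataaaaagccag
VPS13A reverse primer: cagctccatgactaccaacagta

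**Figure D1:**
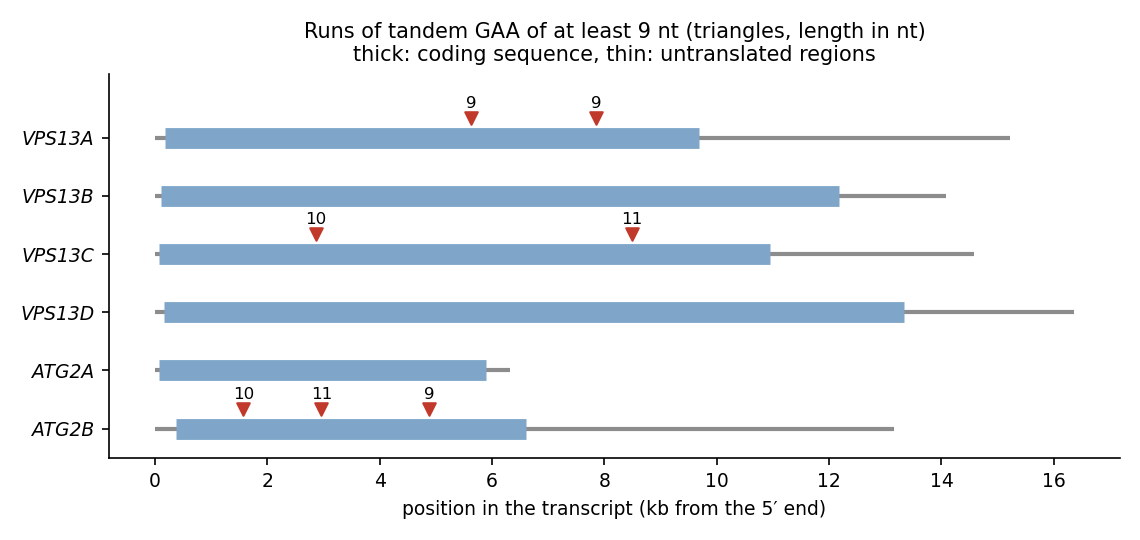
Longest protein-coding transcript of each gene, drawn to scale in kb from its 5′ end, with the coding sequence thick, the untranslated regions thin and runs of tandem GAA of at least 9 nt as triangles labelled with their length in nt. VPS13A carried 2 runs of 9 nt, VPS13C runs of 10 and 11 nt, ATG2B runs of 10, 11 and 9 nt, and VPS13B, VPS13D and ATG2A none.

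None of the 6 transcripts held a run of 12 nt or more, which 2.54% of the 14751 tested genes with a transcript model did. Runs of at least 9 nt, as in VPS13A, VPS13C and ATG2B, were found in 20.1% of those genes. The best ungapped match of these transcripts to 21 nt of tandem GAA had 16 bases in VPS13A, VPS13C and ATG2B. It had 15 bases in VPS13D and ATG2A and 14 in VPS13B. VPS13B had a longer run over its whole gene body, introns included, of 25 nt, against 7 nt in its longest protein-coding transcript and 8 nt in any of its transcripts. Its gene body held 5 runs of at least 12 nt and matched 21 of 21 nt of the repeat, a length of uninterrupted repeat that 0.820% of genes reached in the gene body. The longest run in the gene body was 10 nt for VPS13A, 11 nt for VPS13C, 13 nt for VPS13D, 8 nt for ATG2A and 11 nt for ATG2B.

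Total counts ran from 10538284 to 17894953 per library. The 7 epithelial markers summed to between 2575 and 2910 CPM (counts per 1000000 counts of the library after TMM scaling, which evens out library composition), with CDX1 at 0 in all 4 libraries. KRT19, at 1483 CPM on average with the anti-GAA ASO and 1240 CPM with the control ASO, held much of that sum. Its log2 fold change was 0.26. Both anti-GAA libraries lay below both control libraries for EPCAM, KRT8, KRT18 and CDH1, as they did for 16.9% of tested genes. The log2 fold changes of these markers were −0.21, −0.27, −0.54 and −0.40 (unadjusted p = 0.0434 for KRT18, adjusted p = 0.996 in edgeR). For CDX2 both anti-GAA libraries lay above both control libraries, with a log2 fold change of 0.28. The part of these marker differences in the members' values was not tested. Leukocyte markers summed to at most 0.717 CPM and endothelial markers to at most 0.767 CPM, and fibroblast markers to between 10.1 and 14.6 CPM, all of it COL1A1, with COL1A2 and DCN at 0. In bulk RNA, fewer cells of a type and less RNA per cell cannot be told apart. Across all tested genes, 0 were lower and 0 higher with the anti-GAA ASO at an adjusted p under 0.05 (edgeR's quasi-likelihood test, Benjamini-Hochberg adjustment over all tested genes), while DESeq2 called 5 lower and 0 higher. Before adjustment, an edgeR p under 0.05 was reached by 523 genes with a lower and 154 with a higher level.

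VPS13A (ENSG00000197969, chr9:77177445-77421537 on GRCh38, plus strand) was lower with the anti-GAA ASO in both replicates, without passing the adjusted threshold. Its level under the anti-GAA ASO was 10.8 CPM in replicate 1 and 9.61 CPM in replicate 2, from 107 and 171 counts, and under the control ASO it was 15.1 and 16.9 CPM, from 231 and 287 counts. Both anti-GAA libraries thus lay below both control libraries, and the libraries of each ASO lay close together. The means were 10.2 ± 0.849 CPM with the anti-GAA ASO and 16.0 ± 1.32 CPM with the control ASO (SD, n = 2 each). Within replicates 1 and 2, VPS13A was at 71.8% and 56.8% of its control level. The log2 fold change, anti-GAA over control, was −0.65 with an SE of 0.24, or 1.57-fold lower, with an adjusted p of 0.996 in edgeR (unadjusted p = 0.0330). The unadjusted p of VPS13A was under 0.05 in 7 of 13 alternatives, and it was 0.0622 in DESeq2, 0.125 with offsets on transcript length and GC content, and 0.0624 to 0.162 when any 1 of the 4 libraries was left out. Of all tested genes, 7.30% had a lower log2 fold change than VPS13A.

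VPS13B (ENSG00000132549) had the lowest log2 fold change of the 6 genes. Replicates 1 and 2 of the anti-GAA ASO held 10.9 and 11.2 CPM, from 108 and 200 counts, and those of the control ASO 22.0 and 25.8 CPM, from 338 and 437 counts. The anti-GAA libraries were nearly equal, with replicate 2 at 1.03 times replicate 1, and both lay below both control libraries. In the replicates taken separately VPS13B was at 49.5% and 43.6% of control. Its means were 11.1 ± 0.232 CPM with the anti-GAA ASO and 23.9 ± 2.64 CPM with the control ASO (SD, n = 2 each). The log2 fold change was −1.11 with an SE of 0.23, or 2.16-fold lower, with an adjusted p of 0.671 in edgeR (unadjusted p = 0.00204) and of 0.291 in DESeq2. A lower log2 fold change was found for 2.46% of tested genes. VPS13B did pass the threshold when the replicate number entered edgeR as a block, with a log2 fold change of −1.11, an SE of 0.18 and an adjusted p of 0.00833. That fit called 1.37% of tested genes lower, and VPS13B was the only one of the 6 members it called, with adjusted p from 0.105 for VPS13A to 0.560 for VPS13D.

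Reads of a neighbouring gene could enter a count where genes overlap, since the strand setting of the counting is not given in the sources used here. VPS13B overlaps COX6C, a small subunit of cytochrome c oxidase on the opposite strand, which held 36531 counts over the 4 libraries and had a log2 fold change of −0.048. It also overlaps the divergent transcript VPS13B-DT on the opposite strand, with 564 counts and a log2 fold change of 0.33. The antisense gene of VPS13A, VPS13A-AS1, had 0 counts in all libraries, and genes overlapping VPS13C or VPS13D had at most 5 counts in total. The part of COX6C reads in the VPS13B count was not tested.

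VPS13C (ENSG00000129003, chr15:61852389-62060473, minus strand) varied widely between replicates of the same ASO, and the groups overlapped. Under the anti-GAA ASO its level was 6.36 CPM in replicate 1 and 9.27 CPM in replicate 2, from 63 and 165 counts, and under the control ASO it was 8.22 and 16.3 CPM, from 126 and 276 counts. Replicate 2 of the anti-GAA ASO was above replicate 1 of the control ASO, while within each replicate number the anti-GAA library was the lower one. The means were 7.82 ± 2.06 and 12.2 ± 5.70 CPM (SD, n = 2 each), and the log2 fold change was −0.64 with an SE of 0.39 and an adjusted p of 0.996 in edgeR. Control replicate 2 decided much of that value, which was −0.055 without it and −1.06 without control replicate 1.

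VPS13D (ENSG00000048707, chr1:12230030-12512047, plus strand) was the most abundant of the 6 genes, and its difference between the ASOs was the smallest. Replicates 1 and 2 of the anti-GAA ASO held 27.1 and 38.9 CPM, from 268 and 693 counts, and those of the control ASO 27.8 and 49.7 CPM, from 427 and 842 counts. The replicates 1 were nearly equal, and replicate 2 was higher than replicate 1 under either ASO, by 1.44 times with the anti-GAA ASO and by 1.78 times with the control ASO. The means of 33.0 ± 8.39 and 38.7 ± 15.4 CPM (SD, n = 2 each) gave a log2 fold change of −0.23 with an SE of 0.33 and an adjusted p of 0.996 in edgeR. Its sign turned to 0.015 without anti-GAA replicate 1 and to 0.26 without control replicate 2.

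ATG2A (ENSG00000110046, chr11:64894546-64917209, minus strand) and ATG2B (ENSG00000066739, chr14:96279195-96363341, minus strand), which act in autophagosome growth, were counted less deeply. For both genes the anti-GAA and control libraries overlapped. ATG2A was at 4.55 CPM in replicate 1 and 3.93 CPM in replicate 2 of the anti-GAA ASO, from 45 and 70 counts, and at 3.98 and 7.43 CPM in those of the control ASO, from 61 and 126 counts. Control replicate 2 was the high library and the other 3 were alike, so that replicate 1 gave a log2 difference of 0.19 and replicate 2 of −0.90. The log2 fold change of ATG2A was −0.44 with an SE of 0.39 and an adjusted p of 0.996 in edgeR, and it was 0.095 without control replicate 2. ATG2B was at 3.94 CPM in replicate 1 and 8.32 CPM in replicate 2 of the anti-GAA ASO, from 39 and 148 counts, and at 7.24 and 10.03 CPM in those of the control ASO, from 111 and 170 counts. Its low library was anti-GAA replicate 1, and anti-GAA replicate 2 lay between the control libraries. Within replicates 1 and 2 the log2 difference of ATG2B was −0.86 and −0.27. The log2 fold change of ATG2B was −0.47 with an SE of 0.41 and an adjusted p of 0.996 in edgeR, and it ranged from −1.13 to −0.046 over the alternative settings. With the replicate number as a block in edgeR it was −0.52 with an SE of 0.24 (unadjusted p = 0.0450, adjusted p = 0.288). The smallest count, 39 for ATG2B, carries a counting error of 16.0%.

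**Figure D2:**
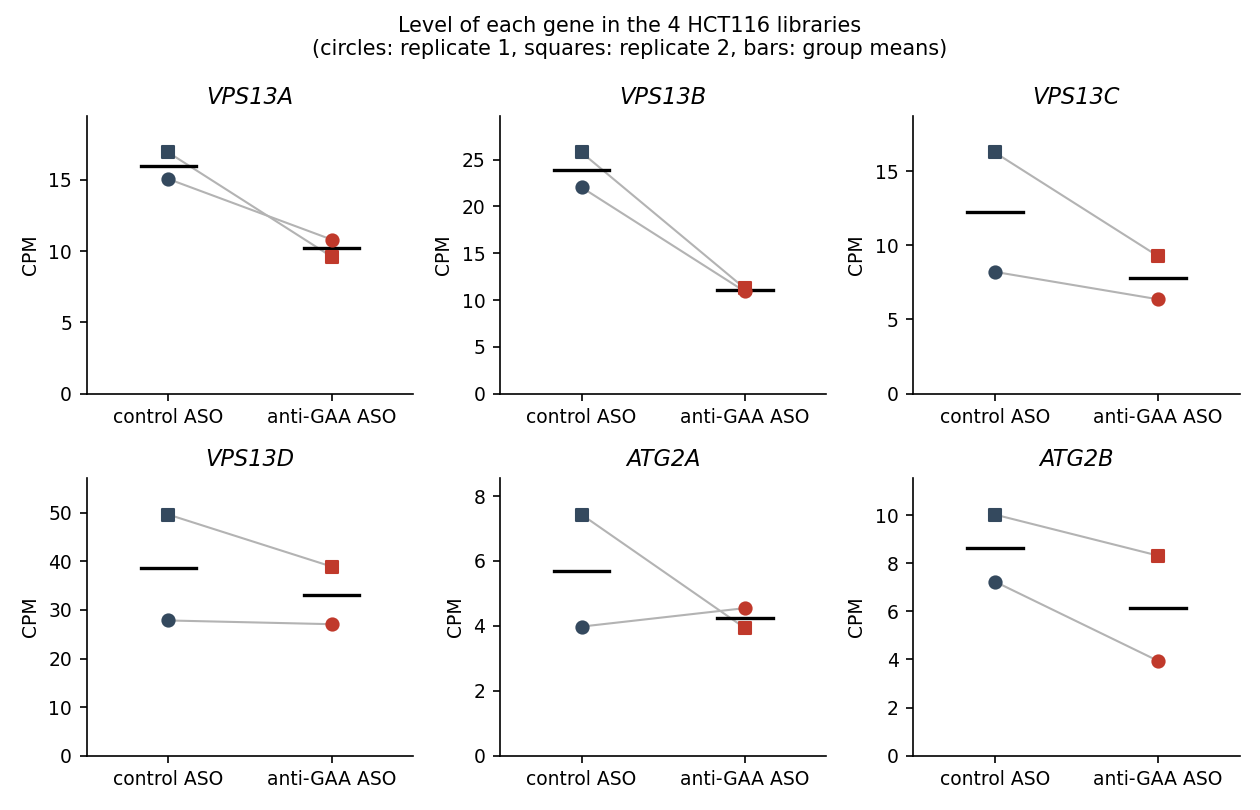
Level of each gene in CPM (y axis, from 0) in the 4 libraries, with the control ASO in blue and the anti-GAA ASO in red, replicate 1 as circles, replicate 2 as squares, lines joining the same replicate number and black bars at the group means (n = 2). The groups are apart for VPS13A (9.61 to 10.8 against 15.1 to 16.9 CPM) and VPS13B (10.9 to 11.2 against 22.0 to 25.8 CPM) and overlap for the other 4 genes.

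As a family, 6 of 6 members had a log2 fold change below 0, with a median of −0.56, beside 48.4% of all tested genes below 0 and a median of 0.013 over all tested genes. The median of the members was −0.38 with offsets on length and GC content and −0.13 without control replicate 2, where VPS13D and ATG2A were above 0. Both anti-GAA libraries lay below both control libraries for 2 of 6 members, VPS13A and VPS13B, and for 16.9% of tested genes. Within both replicate numbers the anti-GAA library was the lower one for 5 of 6 members, all but ATG2A, and for 30.0% of tested genes. An unadjusted p under 0.05 with a lower level was reached by 2 of 6 members, VPS13A and VPS13B, and by 3.46% of tested genes. At an adjusted p under 0.05, edgeR called 0 of 6 members and 0% of tested genes lower, and DESeq2 called 0 of 6 members and 0.0331% of tested genes lower.

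**Figure D3:**
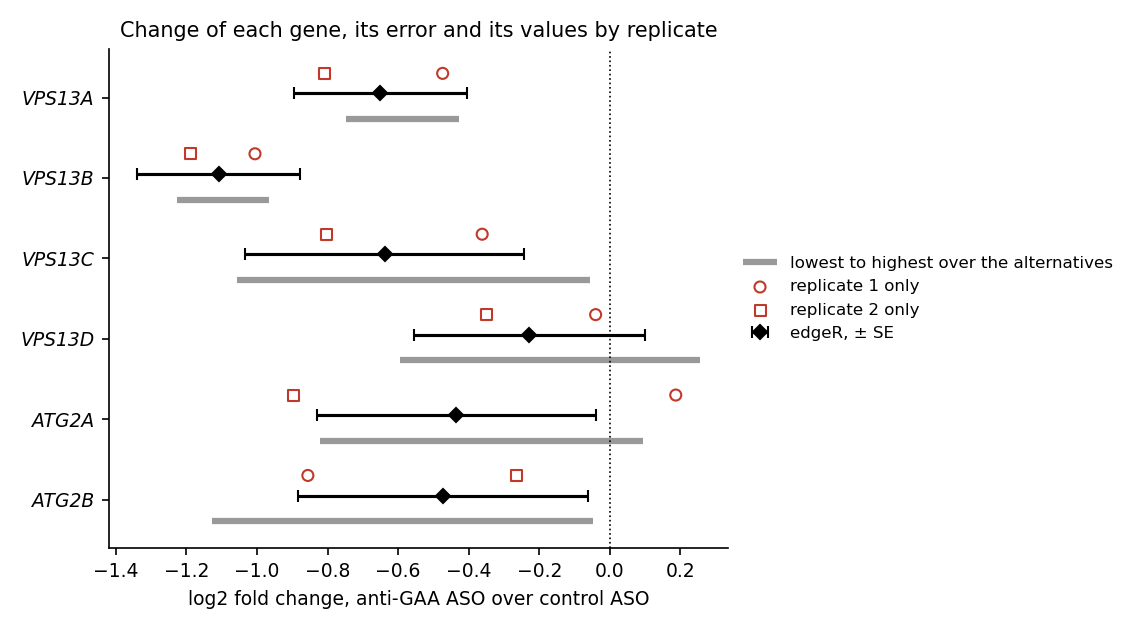
Log2 fold change of each gene, anti-GAA ASO over control ASO (x axis), from edgeR with its SE (black diamonds), within replicate 1 (open circles) and replicate 2 (open squares), and its range over the alternative settings (grey bars). The bars of VPS13A, VPS13B, VPS13C and ATG2B stay below 0, with the bar of VPS13B from −1.23 to −0.97, and those of VPS13D and ATG2A cross 0.

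Whether VPS13A moved apart from its relatives was asked through the ratio of VPS13A to each other member within a library, for 5 ratios in all. With 2 libraries against 2, the two-sided exact permutation test cannot give a p below 0.333, so none of these ratios could pass the threshold. The log2 ratio of VPS13A to VPS13B was −0.013 and −0.22 in the anti-GAA libraries, compared with −0.55 and −0.60 in the control libraries, 0.46 higher on average with the anti-GAA ASO (exact p = 0.333, adjusted p = 1 over the 5 ratios). The anti-GAA libraries lay above the control libraries for this ratio, the only one of the 5 whose groups did not overlap. The ratio of VPS13A to VPS13C differed by −0.059 (exact p = 0.667), and that to VPS13D by −0.45 (exact p = 0.667). Leaving out 1 library at a time moved the first of these differences between −0.46 (without control replicate 2) and 0.35 (without control replicate 1). The difference for VPS13D ran from −0.79 (without anti-GAA replicate 1) and −0.78 (without control replicate 2) to −0.11 (without control replicate 1) and −0.10 (without anti-GAA replicate 2). The ratios to ATG2A and ATG2B differed by −0.29 and −0.080 (exact p = 1 for each), with opposite signs in the replicates, and ranged from −0.64 to 0.070 and from −0.69 to 0.53 with 1 library left out. That to VPS13B ranged from 0.35 to 0.56.

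Levels can be compared between genes only per length, here as CPM per kb of merged exons. With the control ASO the order was VPS13D at 1.87 ± 0.743, VPS13B at 1.14 ± 0.126, VPS13A at 0.796 ± 0.0655, ATG2A at 0.728 ± 0.312, VPS13C at 0.622 ± 0.289 and ATG2B at 0.605 ± 0.138 CPM per kb (SD, n = 2 each). The libraries of VPS13D, VPS13B and VPS13A did not overlap at these 2 steps, whereas VPS13A and ATG2A, ATG2A and VPS13C, and VPS13C and ATG2B did not differ beyond their spread. With the anti-GAA ASO, VPS13D remained the highest level at 1.59 ± 0.404 CPM per kb. VPS13B came to 0.529 ± 0.0111 CPM per kb, next to ATG2A at 0.541 ± 0.0553 and VPS13A at 0.508 ± 0.0422, and these 3 overlapped. ATG2B, at 0.430 ± 0.217 CPM per kb, and VPS13C, at 0.397 ± 0.104, had the lowest means and overlapped each other. The ATG2B libraries, at 0.276 and 0.583 CPM per kb, also spanned those of VPS13A, VPS13B and ATG2A. Divided by the length of the longest protein-coding transcript instead, the control order was the same. The overlap of VPS13B with VPS13A and ATG2A under the anti-GAA ASO did not hold by that length. VPS13B was then at 0.775 and 0.798 CPM per kb in replicates 1 and 2. VPS13A was at 0.710 and 0.631 and ATG2A at 0.720 and 0.623 CPM per kb.

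**Figure D4:**
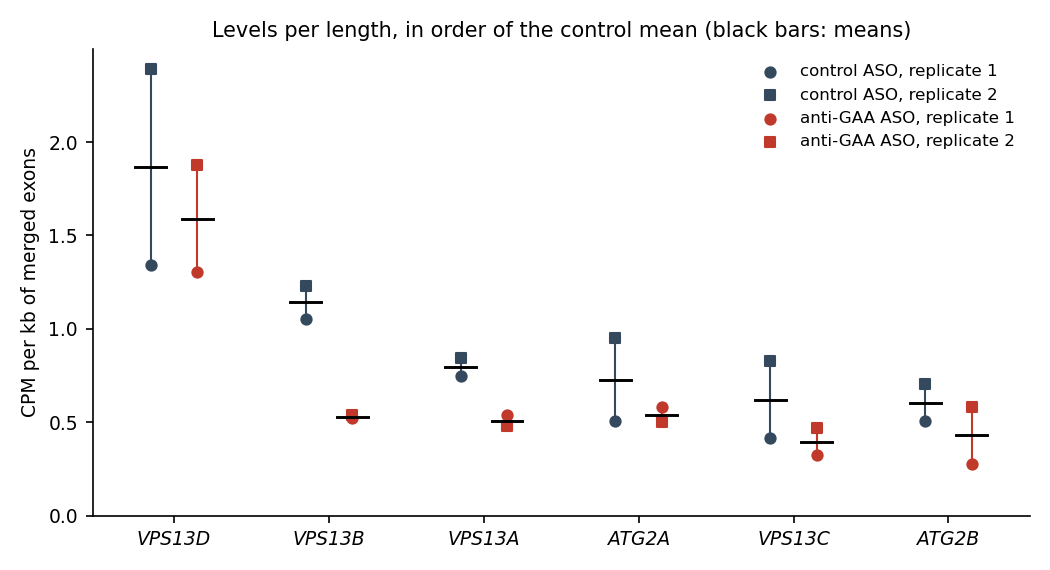
CPM per kb of merged exons (y axis, from 0) for each gene in order of its control mean, with control libraries in blue, anti-GAA libraries in red, replicate 1 as circles, replicate 2 as squares and black bars at the means (n = 2). VPS13B stands second with the control ASO, at 1.14, and level with VPS13A and ATG2A with the anti-GAA ASO, at 0.529.

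Transcript length was the feature most of these genes shared, since 5 of them had a longest protein-coding transcript between 13162 nt (ATG2B) and 16357 nt (VPS13D), and ATG2A one of 6318 nt. Among the 282 tested genes with a transcript of at least 12 kb, the median log2 fold change was −0.084, and 61.3% were below 0, compared with 0.062 and 43.4% for the 3802 genes under 2 kb. A p under 0.05 with a lower level was reached by 6.03% of these long genes, and both anti-GAA libraries lay below both control libraries for 23.0% of them. VPS13B was below the 10th percentile of the long genes, which stood at −0.66, and VPS13A at −0.65 and VPS13C at −0.64 lay just above it. When offsets removed each library's trend on transcript length and GC content, the log2 fold change was −0.97 for VPS13B, −0.43 for VPS13A, −0.42 for VPS13C, −0.34 for ATG2B, −0.28 for ATG2A and −0.076 for VPS13D, and the median of the long genes was 0.068. Among the 6 members, VPS13B, with the lowest log2 fold change, had a longest transcript run of 7 nt, and ATG2B and VPS13C, with −0.47 and −0.64, had 11 nt. Across all tested genes the median log2 fold change was −0.11 for the 773 genes with a transcript run of at least 11 nt (65.2% below 0), −0.16 for the 374 with at least 12 nt (71.4% below 0) and −0.39 for the 24 with at least 18 nt (91.7% below 0). Of tested genes like VPS13B, with a run of at least 18 nt in the gene body and under 9 nt in every transcript, there were 148, with a median log2 fold change of −0.32 and 79.7% below 0. Whatever their transcript runs, the 261 genes with at least 18 nt in the gene body had a median of −0.32 (82.8% below 0). The 62 genes with at least 25 nt, the length in VPS13B, had a median of −0.25 (74.2% below 0). These shares are descriptions over genes, and the part of length or of GAA runs in the members' values was not tested.

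The other bridge-like proteins, the closest relatives in function, had smaller differences. Of BLTP1, BLTP2, BLTP3A and BLTP3B, 3 of 4 were below 0 with a median log2 fold change of −0.090, and 0 of 4 had a p under 0.05. That median was −0.19 when scaled to total counts and turned to 0.058 with the length and GC offsets, 0.034 without control replicate 1 and 0.057 without control replicate 2. BLTP1, whose transcript of 19591 nt is longer than any of the 6, was at 5.70 ± 0.768 CPM with the anti-GAA ASO and 6.23 ± 1.62 CPM with the control ASO (SD, n = 2 each), a log2 fold change of −0.12 with an SE of 0.33. BLTP3B had the lowest value at −0.18, BLTP2 was at −0.056, and BLTP3A had the highest at 0.18.

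Proteins that anchor or work with the VPS13 family were split in direction. Of 10 partners, 5 were below and 5 above 0, with a median log2 fold change of 0.057 and 0 of 10 at a p under 0.05. The median was 0.28 without anti-GAA replicate 1, 0.0014 without control replicate 1, −0.11 without anti-GAA replicate 2 and −0.030 when scaled to total counts. MOSPD2, an endoplasmic reticulum tether, was the lowest at −0.49 (SE 0.32), and FAM177A1, a Golgi partner of VPS13B, followed at −0.14 (SE 0.19). VAPA and VAPB, the endoplasmic reticulum receptors that bind VPS13 proteins, were the highest at 0.28 (SE 0.21) and 0.25 (SE 0.19). XK, the lipid scramblase partner of VPS13A, was at 3.61 ± 1.25 and 3.71 ± 0.745 CPM with the anti-GAA and control ASO (SD, n = 2 each), a log2 fold change of −0.018.

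Of the 13 partners of ATG2, 12 were tested, with 4 below and 8 above 0 and a median log2 fold change of 0.16, which was above 0 in every alternative, from 0.057 without control replicate 1 to 0.27 without control replicate 2. MAP1LC3A had 3 counts in all and was not tested. ATG9B and WDR45, a scramblase and a phosphoinositide-binding adaptor of ATG2, were the lowest at −0.39 (SE 0.65) and −0.33 (SE 0.25). GABARAP and GABARAPL1, ubiquitin-like proteins of the autophagosome membrane, were the highest at 0.89 (SE 0.49) and 0.58 (SE 0.20). ATG9B and GABARAP were counted at low depth, with 80 and 59 counts over the 4 libraries. With the anti-GAA and control ASO, ATG9B was at 1.20 and 1.51 CPM and GABARAP at 1.35 and 0.716 CPM on average. GABARAPL1 was the only one with a p under 0.05 (0.0246, adjusted p = 0.996 in edgeR), at 51.3 ± 1.23 CPM with the anti-GAA ASO and 34.3 ± 3.39 CPM with the control ASO (SD, n = 2 each).

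Of 22 genes of autophagy initiation and conjugation, 20 were tested, with 13 below and 7 above 0. Their median log2 fold change was −0.15. That median was −0.24 when scaled to total counts and −0.068 with the length and GC offsets, and it turned to 0.0091 without anti-GAA replicate 2 and 0.026 without control replicate 1. UVRAG and ATG14, subunits of the lipid kinase complexes around PIK3C3, were the lowest at −0.61 (SE 0.28) and −0.47 (SE 0.52). SQSTM1, the autophagy receptor p62, and ULK2, an initiating kinase, were the highest at 0.70 (SE 0.29) and 0.37 (SE 0.33). SQSTM1 was at 44.4 ± 6.36 CPM with the anti-GAA ASO and 27.4 ± 9.48 CPM with the control ASO (SD, n = 2 each). It was the only gene of the 20 with an unadjusted p under 0.05 in edgeR (0.0463). Its adjusted p was 0.996 in edgeR and 0.0341 with the replicate block.

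Other lipid transfer proteins, outside the bridge-like proteins listed above, were split in direction as well. Of 23 such genes 22 were tested, 12 of them below and 10 above 0, with a median log2 fold change of −0.024, which was −0.11 when scaled to total counts and turned to 0.050 with the length and GC offsets, and 0 at a p under 0.05. The phosphatidylinositol transfer protein PITPNM1 and the oxysterol-binding relative OSBPL7 were the lowest at −0.45 (SE 0.37) and −0.34 (SE 0.32), and the sterol transporter GRAMD1C and OSBPL1A the highest at 0.31 (SE 0.49) and 0.23 (SE 0.26). No gene of these 5 lists passed the adjusted threshold in edgeR without the block.

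The genes whose pattern over the 4 libraries was most like that of VPS13A were sought among 13804 other genes whose mean reached 1 CPM, by the root mean square difference of log2 CPM after centring each gene. The 5 nearest were TUFT1 at 0.0338, ZBTB49 at 0.0374, DUSP5-DT at 0.0414, ODR4 at 0.0419 and NF1 at 0.0446 on the log2 scale. Of the other members VPS13B was the nearest at 0.240, at rank 1302, and ATG2B the farthest at 0.446. With only 4 libraries such a likeness is a description of this table.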

How the data were processed

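RNA-seq counts of 4 HCT116 libraries were used, 2 per ASO, grouped by the treatment in the sample labels. Per the study's methods, Trimmomatic trimmed the reads, STAR placed them on hg19 (GRCh37) and featureCounts summed them over Ensembl genes. The deposited values are the resulting raw counts, not normalized by the authors. The strand setting, the Ensembl release and the handling of reads shared by genes are not given in the sources used here.

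Counts of the 15116 genes kept by filterByExpr (of 63677) were scaled by TMM and tested in R 4.3.3 with edgeR 4.0.16 by its quasi-likelihood F-test, with the ASO as the only term, two-sided and with Benjamini-Hochberg adjustment over all tested genes at a threshold of 0.05. CPM are counts per 1000000 counts of the TMM-scaled library. Differences within a replicate number and ratios between genes used log2 CPM with a prior count of 2. Ratios were compared by an exact permutation test in scipy 1.17.1. The edgeR fit, edgeR with the replicate block and DESeq2 without it were tested on simulated counts, and the other alternative fits were not. Total counts of 10538284 to 17894953 gave the members 39 to 842 counts per library, and counting errors and intervals cover counting error only.

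Symbols, transcripts and GRCh38 positions came from GENCODE 44, joined by Ensembl identifier (52181 of 63677 genes matched), and no position was converted from hg19. Sequences came from the same reference, other than the primers, which came from the study's supplementary primer list. The promoter and miRNA sequences of RefSeq were not used here.

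The members and the gene lists were chosen with earlier results of these data known. Named genes are the 6 members, the 2 lowest and 2 highest log2 fold changes of each list with any gene past the threshold, and the 5 genes most like VPS13A in pattern. XK, COX6C, VPS13B-DT, VPS13A-AS1, MAP1LC3A and markers given singly were named outside this rule after their values were seen. Alternatives were DESeq2 1.42.0, its size factors in edgeR, total counts, a filter at a mean of 1 CPM, no filter, a prior count of 0.5, the replicate number as a block, offsets on length and GC content (mgcv 1.9.3), the block with these offsets, the longest transcript, any transcript or the gene body in place of the main transcript model, and leaving out each library in turn. DESeq2 with the replicate block was added after the data had been seen.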

Additional observations from a re-analysis of the deposited data

How the results depend on the processing

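Over 13 alternatives, VPS13A, VPS13B, VPS13C and ATG2B were lower in 13 of 13, ATG2A in 12 and VPS13D in 11. An unadjusted p under 0.05 was reached by VPS13B in all 13 alternatives, by VPS13A in 7, by VPS13C in 3, by ATG2B in 2 and by VPS13D and ATG2A in 0. VPS13B passed the adjusted threshold in 4, with log2 fold changes of −1.12 without a filter (adjusted p = 0.0499), −1.11 with the replicate block (0.00833), −0.97 with the block and the length and GC offsets (0.000191) and −1.10 in DESeq2 with the replicate block (0.0280), the last chosen after seeing the data. No other member passed it under any alternative. Leaving out 1 library at a time, which leaves a group with 1 library assumed to vary like the other group, gave log2 fold changes of −0.74 to −0.56 for VPS13A, −1.23 to −0.98 for VPS13B, −1.06 to −0.055 for VPS13C, −0.60 to 0.26 for VPS13D, −0.82 to 0.095 for ATG2A and −1.13 to −0.046 for ATG2B. VPS13D turned to 0.015 without anti-GAA replicate 1 and 0.26 without control replicate 2, and ATG2A to 0.095 without control replicate 2. Over all genes, the 0 lower and 0 higher calls became 5 and 0 in DESeq2, 111 and 5 without a filter, 207 and 51 with the replicate block, 440 and 361 with the block and the offsets, 45 and 13 in DESeq2 with the block, and 0 to 16 lower and 0 to 3 higher with 1 library left out, of which 16 and 2 came without control replicate 1 and 2 and 3 without anti-GAA replicate 2. The cause of these changes was not tested. The labels do not say what a shared replicate number marks. The titles of same-numbered libraries do share an identifier, without saying what it stands for. Deviations from the group means of same-numbered libraries correlated at 0.56 across genes. The largest axis of variation between the libraries, with 52.7% of the variance, separated the replicate 1 libraries from the replicate 2 libraries. With 2 such pairs and no label for what the number marks, the main values carry no block and leave this sharing unmodelled. Apart from VPS13B and SQSTM1, the block changed no call among the members and the 5 gene lists. The counting error of the smallest count was 9.67% for VPS13A, 12.6% for VPS13C and 16.0% for ATG2B, while the control libraries of VPS13C differed by 1.98 times.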
